A study of Homo sapiens with 8 samples.

Results

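The genes considered here are 9 genes of the PML nuclear body and of the SUMO pathway, namely PML, SP100, SP110, DAXX, ATRX, SUMO2, SUMO3, PIAS1 and HIPK2. Their peaks were taken from a list of Cut&Run peaks of PML::RARA, the fusion protein of acute promyelocytic leukemia. A peak was counted when it carried 1 of these gene symbols in the authors' annotation. A peak without a symbol was counted when its centre lay within 50 kb of the centre of such a peak on the same chromosome. This gave 12 of the 15412 peaks in the list, 5 of them labelled and 7 of them unlabelled neighbours. PML, DAXX, SUMO2, SUMO3 and PIAS1 had 1 labelled peak each, and SP100, SP110, ATRX and HIPK2 had none.

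PML nuclear bodies are spherical structures of the nucleus that PML, their scaffold protein, builds once it is modified by SUMO, a small protein that is attached to lysines and read by short interaction motifs of its partners. SP100 and DAXX are recruited in this way, and DAXX works with ATRX as a chaperone that places histone H3.3 into chromatin. In acute promyelocytic leukemia PML is fused to the retinoic acid receptor RARA, and the bodies are dispersed into fine speckles.

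Cut&Run maps a chromatin protein by tethering a nuclease to its antibody and sequencing the DNA fragments that are cut free. The monocytic line U937-PR9 carries a PML::RARA transgene under a zinc-responsive promoter, in addition to its own PML and RARA genes. The study treated these cells for 5 h with 100 μM ZnSO4 (induced) or water (uninduced) and applied an anti-PML::RARA and an anti-RARA antibody to 2 replicates of each, which makes 8 libraries. The values come from the anti-PML::RARA list of the induced cells alone, so effects of zinc and of the fusion protein cannot be told apart, and each peak is a presence in induced cells with no control value beside it. The list kept peaks that were reproducible across both replicates and gives 1 value per peak, so that no error between replicates can be attached to any value, no test between conditions is possible, and the sequencing depth is unknown.

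The sequences that follow show the DNA at which the peaks at the start sites of these genes lay, and the corresponding stretch of SP100 and SP110, 2 of the 4 genes without such a peak. They were read from hg19 5′ to 3′ on the strand of the gene, and each upstream stretch is the 120 bp before the outermost annotated start site within 1 kb of the canonical start, chosen so that it lies outside the canonical transcript (that of SP110 lies within a longer transcript). Capitals mark matches, on either strand, to GGGCGG (the box bound by factors of the SP and KLF families), AGGTCA or AGTTCA (the core motifs of retinoid receptors) and AGGAAGT (the ETS type). The stretches of DAXX and SUMO2 contain the apex of the labelled peak, and those of PIAS1 and SUMO3 are covered by it. Of PML, 30 bases at the start site are shown, and then the bases around the apex of its labelled peak in exon 2.
PML start site, chr15:74286987-74287016, plus strand: aaCCGCCCccagcttctgtctcACTTCCTc
PML exon 2 apex, chr15:74290407-74290507, plus strand: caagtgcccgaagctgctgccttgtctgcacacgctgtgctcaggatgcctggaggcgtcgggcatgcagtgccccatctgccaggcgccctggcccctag
DAXX upstream, chr6:33290794-33290913, minus strand: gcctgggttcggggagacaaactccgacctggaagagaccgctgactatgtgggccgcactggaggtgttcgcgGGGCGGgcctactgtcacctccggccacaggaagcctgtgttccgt
SUMO2 upstream, chr17:73179055-73179174, minus strand: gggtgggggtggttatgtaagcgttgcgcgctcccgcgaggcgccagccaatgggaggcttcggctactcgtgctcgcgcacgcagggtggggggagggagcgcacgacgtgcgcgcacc
SUMO3 upstream, chr21:46238695-46238814, minus strand: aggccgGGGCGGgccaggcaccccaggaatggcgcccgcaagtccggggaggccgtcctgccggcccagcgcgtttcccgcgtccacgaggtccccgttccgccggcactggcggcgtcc
PIAS1 upstream, chr15:68346527-68346646, plus strand: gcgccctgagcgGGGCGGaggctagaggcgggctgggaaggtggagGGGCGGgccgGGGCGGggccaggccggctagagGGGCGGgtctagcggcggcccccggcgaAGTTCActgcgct
SP100 upstream, without a peak, chr2:231280537-231280656, plus strand: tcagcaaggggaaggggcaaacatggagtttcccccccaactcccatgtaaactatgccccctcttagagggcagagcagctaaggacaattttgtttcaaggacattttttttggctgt
SP110 upstream, without a peak, chr2:231084730-231084849, minus strand: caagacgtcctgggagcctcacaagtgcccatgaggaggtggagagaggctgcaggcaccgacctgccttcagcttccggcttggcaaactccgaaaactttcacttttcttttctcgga
The PIAS1 stretch holds 4 GGGCGG boxes and an AGTTCA, and that of SUMO2, which also lies at a peak, holds none of the letters, like those of SP100 and SP110. Among the stretches shown, the letters therefore did not separate those with a peak from those without. This depends on the window, since the 300 bp promoters of SUMO2 and SP100, described later, both hold a GGGCGG. The stretches of ATRX and HIPK2 are not shown, and their promoters are among those counted later.

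Of the 9 genes, 5 had a labelled peak, against 30.4% of 19811 protein-coding genes. The same 5 genes had an apex, the midpoint of the interval of largest signal, within 1 kb of one of their own start sites, against 39.8% of protein-coding genes. Counting any peak over the gene, SP100 and HIPK2 joined them, which made 7 of 9 against 45.6%. Since the genes are few and were chosen with earlier results of these data known, the counts are given as a description without a test.

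The 5 labelled peaks had heights between 23 and 39 with a median of 24, where height is the largest signal within a peak. All peaks of the list had a median height of 25, and the labelled peaks of all genes one of 26, so 3 of the 5 lay below either median and the PIAS1 peak, at 26, only just above that of all peaks. Their median width was 1089 bp, with the narrowest at 545 bp and the widest at 1857 bp, close to the 1108 bp of all labelled peaks. The height of the peaks was thus ordinary, apart from that of DAXX, while their widths fell into a narrow pair and 3 wider peaks. The 7 unlabelled neighbours spread further, with heights from 21 to 47 and widths from 175 to 3407 bp.

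**Figure D1:**
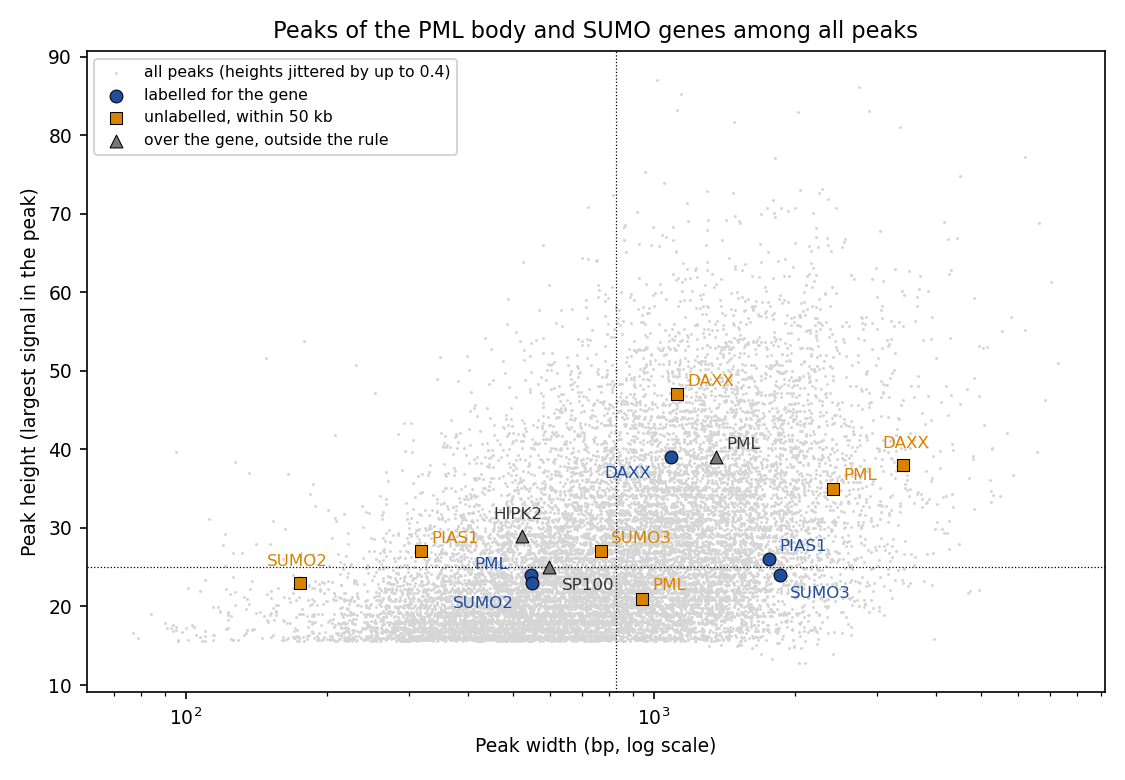
Height (largest signal in the peak) against width (bp, log scale) of all 15412 peaks in grey, with labelled peaks of the 9 genes as circles, unlabelled neighbours within 50 kb as squares named by the gene they neighbour, and peaks over a gene that the rule leaves out as triangles; dotted lines are the medians of all peaks, 25 for height and 829.5 bp for width. Of the labelled peaks, only that of DAXX stood well above the median height, and the highest and the widest of all these peaks were unlabelled neighbours of DAXX.

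PML (ENSG00000140464, plus strand of chromosome 15, 74287014 to 74340168, hg19) is the scaffold of the bodies and the gene whose 5′ part enters the fusion. Its labelled peak did not lie at the start of the canonical transcript but over exon 2, from 74290316 to 74290860. With a width of 545 bp it ranked 11357 by width among all peaks, and with a height of 24 it ranked 7817, a place shared by 616 peaks of that height. Its apex lay 3400 bp downstream of the canonical start site and 92 bp from the start of another annotated PML transcript. Among labelled peaks whose gene could be matched, 8.65% had their apex more than 3 kb from the canonical start of the labelled gene.

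The outline of this peak followed the exon. Exon 2 spans 74290345 to 74290817, so the peak began 29 bp before it and ended 43 bp after it, and 473 of its 545 bases, or 86.8%, were coding. As this was examined after the position of the peak had been seen, the whole list was searched in the same way. Of all, 22 of the 15412 peaks, or 0.143%, had a coding share at least as large, and the median share was 0%. Besides the PML peak, a peak over an exon of FAT1 also began and ended within 50 bp of the ends of an exon. So did a peak over H2AC8, a gene with only 1 exon, and no other peak in the list did. The transgene carries PML sequence, and its part in the signal over PML exons was not tested.

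At the start site of PML itself lay a higher and wider peak, from 74286583 to 74287935, which carried the symbol of the neighbouring gene STOML1 and is therefore outside the 12. Its height of 39 ranked 2104 and its width of 1353 bp ranked 3336, and its apex lay 25 bp upstream of the canonical start site of PML. A start of another STOML1 transcript lay 69 bp from that apex, and the canonical STOML1 start 2396 bp away. Such labels were not rare. Among peaks with the symbol of a protein-coding gene, 5632 had their apex within 1 kb of a canonical start site of such a gene. Of these, 9.38% carried the symbol of another gene than the nearest. Peaks with other symbols, such as those of noncoding genes, were not counted. The start-site peak covered exon 1, was separated from the exon 2 peak by 2380 bp, and no peak overlapped any of exons 3 to 9. Along the canonical transcript the peaks over PML in this list were therefore limited to the first 2 of its 9 exons and the bases beside them. The 30 bases shown above for PML, which lie within 50 bp of that apex, hold a GGGCGG and an AGGAAGT, both on the minus strand.

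Upstream of PML, both unlabelled neighbours lay in STOML1. The first, from 74274026 to 74276435, was 2410 bp wide (rank 512) with a height of 35 (rank 3088), and its apex lay in the 3′ UTR of STOML1, 11840 bp before the PML start. The other, from 74276935 to 74277877, was 943 bp wide (rank 6510) with a height of 21 (rank 9879) and lay in intron 5. Its mean signal of 5.18 per bp, the total signal divided by the width, exceeded that of only 2.75% of the peaks. By this measure it was among the lowest in the list, while its height exceeded that of 30.6% of the peaks.

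**Figure D2:**
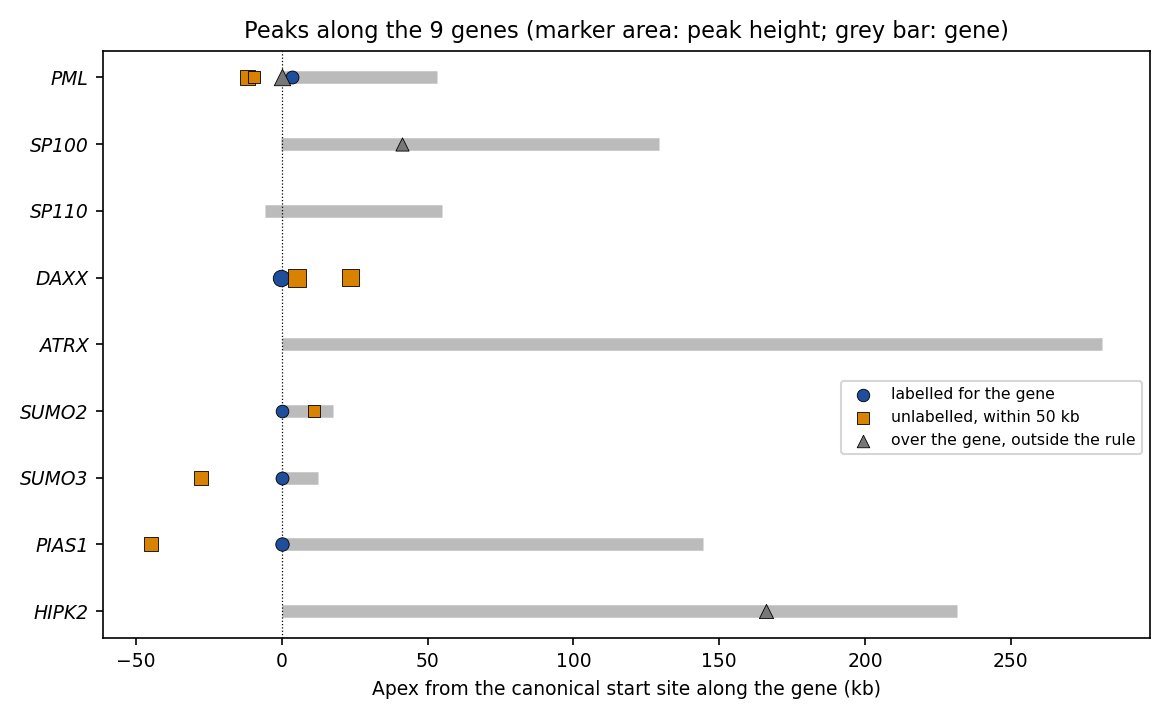
Apex of each peak along the 9 genes by its distance from the canonical start site (kb, positive in the direction of transcription), with the gene as a grey bar and marker area standing for peak height; circles are labelled peaks, squares unlabelled neighbours within 50 kb and triangles peaks over the gene that the rule leaves out. The labelled peaks of DAXX, SUMO2, SUMO3 and PIAS1 sat on the start, at PML the peak on the start carried another symbol, and SP110 and ATRX were empty.

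DAXX (ENSG00000204209, minus strand of chromosome 6, 33286335 to 33290793) encodes the histone chaperone that SUMO-modified PML recruits to the bodies. It had the highest labelled peak of the 9 genes, from 33290334 to 33291422, with a height of 39 (rank 2104, shared by 209 peaks) and a width of 1089 bp (rank 5186). The apex lay 173 bp upstream of the canonical start site, in the stretch shown above. Its height exceeded that of 85.0% of all peaks and 82.7% of labelled peaks, and its mean signal of 13.5 per bp was the largest of the 5 labelled peaks.

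The DAXX locus also held the highest and the widest of the 12 peaks. An unlabelled peak from 33284939 to 33286058, just past the 3′ end of DAXX, reached 47 (rank 890), above 93.6% of the list, with a width of 1120 bp (rank 4919). Its apex lay 156 bp upstream of the start of ZBTB22, a zinc finger gene. A further unlabelled peak, from 33264742 to 33268148, was 3407 bp wide, wider than 99.2% of the list (rank 123), with a height of 38 (rank 2313), and its apex lay 498 bp upstream of the start of RGL2. Both therefore lay at start sites of other genes, which was the case for 2 of the 7 unlabelled neighbours.

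SUMO2 and SUMO3 encode nearly identical modifiers that can form chains on their targets. SUMO2 (ENSG00000188612, minus strand of chromosome 17, 73161681 to 73179054) had a narrow labelled peak from 73179005 to 73179552, with a width of 548 bp (rank 11309), a height of 23 (rank 8433, shared by 705 peaks) and an apex 87 bp before the start. SUMO3 (ENSG00000184900, minus strand of chromosome 21, 46225532 to 46238694) had a peak from 46236984 to 46238840 of nearly the same height, 24 (rank 7817), but a width of 1857 bp (rank 1360). Its apex lay 64 bp upstream of the canonical start. The SUMO3 peak was wider than 91.2% of the list and the SUMO2 peak than 26.5%, so the pair were alike in height and position and unlike in width.

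Each of these genes had 1 unlabelled neighbour. That of SUMO2 lay within the gene, in intron 3, from 73168081 to 73168255, and with 175 bp was among the narrowest peaks of the list (rank 15279), at a height of 23 (rank 8433) equal to that of the labelled peak. It was the only one of the 12 peaks with an AGGTCA within 100 bp of its apex, and the bases around this apex are given for that reason. Repeats were not annotated, and whether these bases lie in one was not tested.
SUMO2 intron 3 apex, chr17:73168134-73168234, minus strand: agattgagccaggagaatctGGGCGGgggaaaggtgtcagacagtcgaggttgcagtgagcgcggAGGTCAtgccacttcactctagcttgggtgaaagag
The neighbour of SUMO3, from 46265432 to 46266201, was 770 bp wide (rank 8407) with a height of 27 (rank 6155) and lay 27864 bp upstream of SUMO3 and 27764 bp from the start of PTTG1IP.

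PIAS1 (ENSG00000033800, plus strand of chromosome 15, 68346647 to 68490941) encodes a SUMO ligase that modifies PML and other nuclear proteins. Its labelled peak lay from 68346257 to 68348018, with a width of 1762 bp (rank 1597), a height of 26 (rank 6677, shared by 549 peaks) and its apex in intron 1, 45 bp downstream of the start site. It was the second widest of the 5 labelled peaks, wider than 89.6% of the list. The only unlabelled neighbour of PIAS1, from 68301462 to 68301779, lay 44937 bp upstream of the start site and was narrow, with a width of 318 bp (rank 14369) and a height of 27 (rank 6155). Its centre was 45517 bp from that of the labelled peak, the farthest that still fell within 50 kb. The nearest unlabelled peak outside that limit, at SUMO3, was 63477.5 bp away, reached 29 and was 1320 bp wide.

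SP100 (ENSG00000067066, plus strand of chromosome 2, 231280657 to 231410321) encodes a permanent resident of the bodies, and SP110 (ENSG00000135899, minus strand, 231029902 to 231090444) a related protein of the same family. Neither had a labelled peak. SP100 had 1 unlabelled peak in intron 8, from 231321797 to 231322393, 41271 bp downstream of its start, with a height of 25 (rank 7226) and a width of 597 bp (rank 10618). SP110 had no peak over the gene, and the nearest apex lay 94726 bp from its start site. The stretch of 380.4 kb from SP110 over SP140 and SP140L to SP100 held this 1 peak in all. Of 7993 windows of that length across the genome, 32.6% held at least 2 peaks and the median held 0. These windows were laid without regard to genes and include stretches that hold none. They therefore cannot show whether 1 peak is few for a stretch of 4 genes.

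ATRX (ENSG00000085224, minus strand of chromosome X, 76760358 to 77041719), the remodeller that acts with DAXX, had no peak over the gene. The nearest apex lay 109341 bp from its start, in a peak labelled MAGT1 that was 405 bp wide and reached 20, and on the other side no peak followed for 1366965 bp. Peaks were sparser on this chromosome, where 18.1% of 841 protein-coding genes had a labelled peak. HIPK2 (ENSG00000064393, minus strand of chromosome 7, 139246316 to 139477797), a kinase that phosphorylates p53 at the bodies, had 1 unlabelled peak in intron 5, from 139311524 to 139312046, with a height of 29 (rank 5211) and a width of 523 bp (rank 11665). It lay 166045 bp downstream of the start site, and the apex nearest to that start was 77757 bp away.

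Ordered by the distance of the canonical start site from the nearest apex of any peak, the genes fell into separate sets. PML at 25 bp, PIAS1 at 45 bp, SUMO3 at 64 bp, SUMO2 at 87 bp and DAXX at 173 bp came first, and SP100 at 41271 bp, HIPK2 at 77757 bp, SP110 at 94726 bp and ATRX at 109341 bp followed. The median over all protein-coding genes was 19102 bp. None of the 9 genes lay between 173 bp and 41271 bp, and the labels had already fixed most of this separation. At PML, however, the nearest apex belonged to the peak labelled STOML1.

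**Figure D3:**
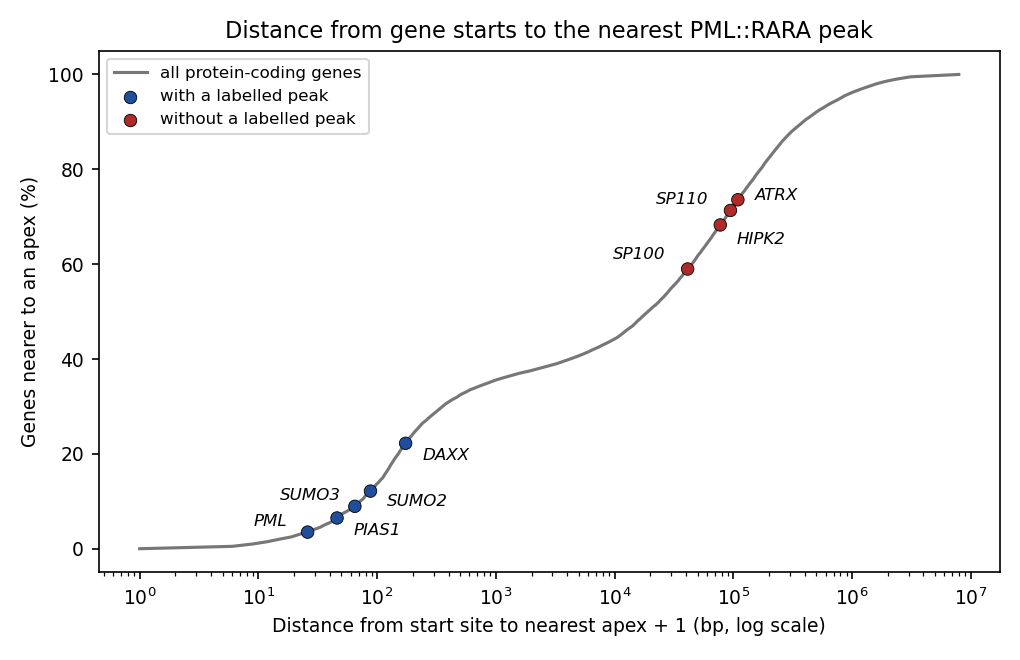
Share of protein-coding genes (%) with an apex nearer to their start than the distance on the horizontal axis (bp plus 1, log scale), with the 9 genes marked on the curve, blue with and red without a labelled peak. The 5 genes with a label lay within 173 bp of an apex and the 4 without at 41271 bp or more.

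All 5 labelled genes had at least 1 unlabelled peak within 50 kb, against 46.6% of all genes with a label. DAXX and PML had 2 each, and SUMO2, SUMO3 and PIAS1 had 1. The 2 neighbours that lay at start sites of other genes were both at DAXX, which had no further one. Leaving them out could not change the other 4 genes, and the 46.6% was not recounted in that way.

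The base composition of the promoters, taken as the 300 bp from 250 bp before to 50 bp after the start site of the canonical transcript in GENCODE, differed among the 9 genes. With a GC content of 62.7% to 78.3% and a median of 68.3%, the 5 labelled genes resembled all genes with a label, whose median was 66.7%. SP100 at 58.3%, SP110 at 57.0% and ATRX at 51.7% lay below the median of 61.7% for genes without a label. HIPK2 was the exception with 81.0%, the highest of the 9, so that the sets overlapped. Over all promoters, 38.9% of genes at or above the median GC content had a labelled peak and 21.7% below it. The ratio of observed to expected CpG, which marks CpG islands, was between 0.863 and 1.09 at DAXX, PIAS1, SUMO2 and SUMO3. It was 0.512 at PML, below the median of 0.777 over all promoters, and 0.402 at SP110 and 0.315 at SP100, whereas HIPK2 had 0.971 and ATRX 0.756.

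**Figure D4:**
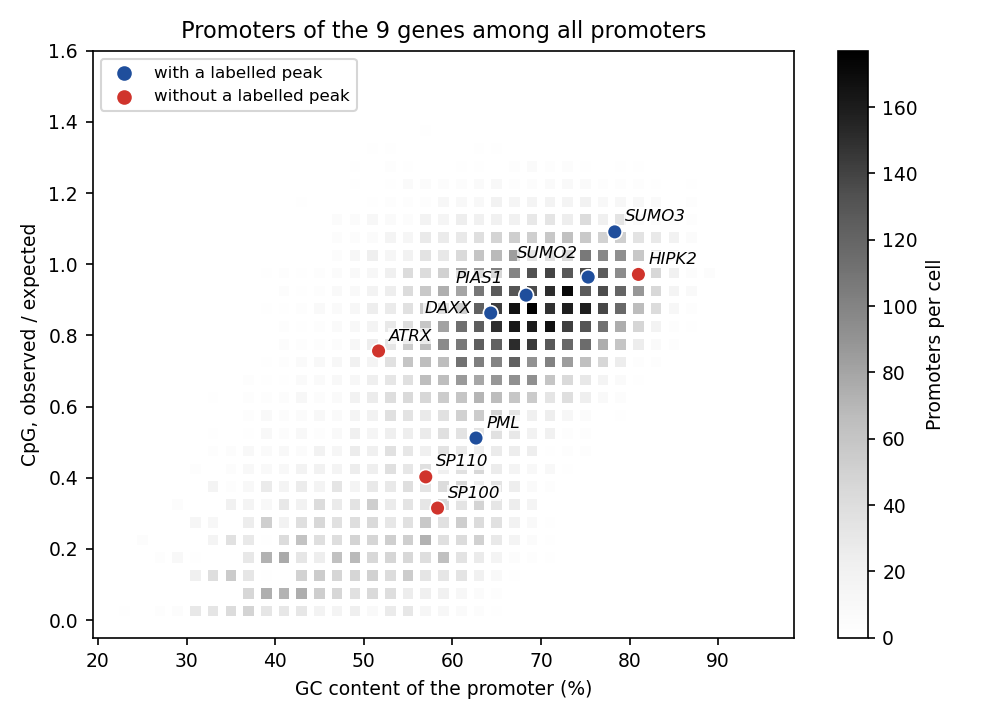
Ratio of observed to expected CpG against GC content (%) of 300 bp promoters, with all promoters as grey cells whose shade gives their number and the 9 genes as points, blue with and red without a labelled peak. SP100, SP110 and ATRX lay at lower GC content than the labelled genes, and HIPK2, without a label, had the highest.

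Within 100 bp of the apex, GGGCGG occurred in 10 of the 12 peaks, including all 5 labelled peaks, against 38.6% of all peaks, 61.9% of labelled and 18.4% of unlabelled peaks. The count depended on the window, since within 50 bp only 4 of the 12 held it and none of the 5 labelled peaks did. The shares within 50 bp were 25.4% of all peaks, 41.1% of labelled and 11.8% of unlabelled peaks. Each core motif of retinoid receptors occurred in 1 of the 12 peaks. AGGTCA was in the intronic SUMO2 peak (13.8% of all peaks) and AGTTCA in the labelled PIAS1 peak (9.13%). With 12 peaks, these counts cannot be set apart from the shares of all peaks. A pair of AGNTCA on the same strand, 0 to 8 bp apart, occurred in none of the 12 within 100 bp, against 0.889% of all peaks. Over their whole width, 5 of the 12 peaks held an AGGTCA, against 42.9% of all peaks.

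AGGAAGT and TGANTCA (the AP-1 type) occurred in none of the 12 within 100 bp of the apex, against 15.7% and 12.5% of all peaks, and TTCNNNGAA (the STAT type) in none against 4.72%. TGTGGT, the RUNX type, occurred in 2 of the unlabelled neighbours, against 19.4% of all peaks. These counts also depended on the window. Over the whole width, AGGAAGT occurred in 4 of the 12 (32.1% of all peaks) and TGANTCA in 3 (27.0%). TTCNNNGAA occurred in 2 (19.9%) and TGTGGT in 4 (45.2%). Each of these motifs is short, and a match is a description of the letters only. In the promoters, 1 fixed string of the interferon-response type matched at ATRX alone of the 9 genes, against 3.296% of all promoters. Other forms of the interferon-stimulated response element were not searched, so promoters without this string may still hold the element. Within 100 bp of the apex the string occurred in 1 of the 12 peaks, the unlabelled neighbour of PIAS1, against 1.82% of all peaks. AGGAAGT was found in the promoters of PML, SP100 and SP110, against 7.91% of all promoters. GGGCGG was found in 7 of the 9 promoters, against 61.5% of all, namely those of the 5 labelled genes and those of SP100 and HIPK2, which have no peak at their start.

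The wider pathway was examined over 7 lists of 53 genes, the 9 genes included, of which 28 had a labelled peak, or 52.8% beside the 30.4% of all protein-coding genes. Without the 9 genes it was 23 of 44, or 52.3%. By an apex within 1 kb of an own start site it was 34 of 53 beside 39.8%. The heights were ordinary again, with a median of 25.5 and 14 of the 28 genes above the median height of all peaks.

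Of the scaffold and residents of the bodies, 8 of 20 genes had a labelled peak, beside 30.4% of all protein-coding genes. By an apex within 1 kb of an own start site it was 10 of 20 beside 39.8%. The same shares apply to the lists that follow, which are small, and no list was tested against them. The labelled peaks of the scaffold and residents had heights from 16 to 50. BLM, the helicase mutated in Bloom syndrome, had the highest at 50, above 95.4% of all peaks, and HIPK3, a kinase related to HIPK2, had a peak that was low, at 16, but 1977 bp wide. Genes of histone H3.3 and its chaperones had the largest share of labels of the lists with more than 3 genes, 6 of 9, and the highest median height, 32.5, of the lists with more than 1 labelled gene. ASF1A, which hands histones H3 and H4 to other chaperones, reached 51 with a width of 2056 bp, and H3-3B (also known as H3F3B), a gene of histone H3.3 itself, reached 47. CABIN1, a subunit of the HIRA complex, had a wide peak of 1916 bp.

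Of the 4 SUMO genes, SUMO2 and SUMO3 had a labelled peak. SUMO4 had none, with the nearest apex 82756 bp from its start. Of the enzymes that activate and conjugate SUMO, 2 of 3 had a labelled peak, and UBA2 had none, with the nearest apex 249195 bp from its start. Of the SUMO ligases, 5 of 9 had one, with heights from 16 to 33. PIAS2 had none, and the apex nearest to its start was 573486 bp away. Of the SUMO proteases, 5 of 9 had a labelled peak, with heights no larger than 27. RNF4, the ubiquitin ligase that recognises SUMO chains and degrades PML after arsenic treatment, had a peak that reached 44 and was 1971 bp wide, past the 90th percentile by both measures, while RNF111, the other ligase of this kind, had none.

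The 25 genes without a labelled peak included SP100, SP110, SP140, SP140L, ATRX, HIPK1, HIPK2, TOPORS, TDG, CREBBP, RPA1, WRN, UBN1, H3-3A, SUMO4, UBA2, PIAS2, RANBP2, NSMCE2, SENP3, SENP6, SENP7, USPL1 and RNF111. Of these, 6 had an apex within 1 kb of an own start site in a peak that carried another symbol or none. At TDG, a DNA glycosylase, a peak labelled C12orf73 with a height of 38 had its apex 8 bp from the start. At H3-3A, the other histone H3.3 gene, it was a peak labelled H3P6 with a height of 37 at 38 bp, and at USPL1, a SUMO protease, a peak labelled HMGB1 with a height of 51 at 89 bp. The remaining 3, HIPK1, UBN1 and SENP3, had peaks with heights of 17 or 18.

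**Figure D5:**
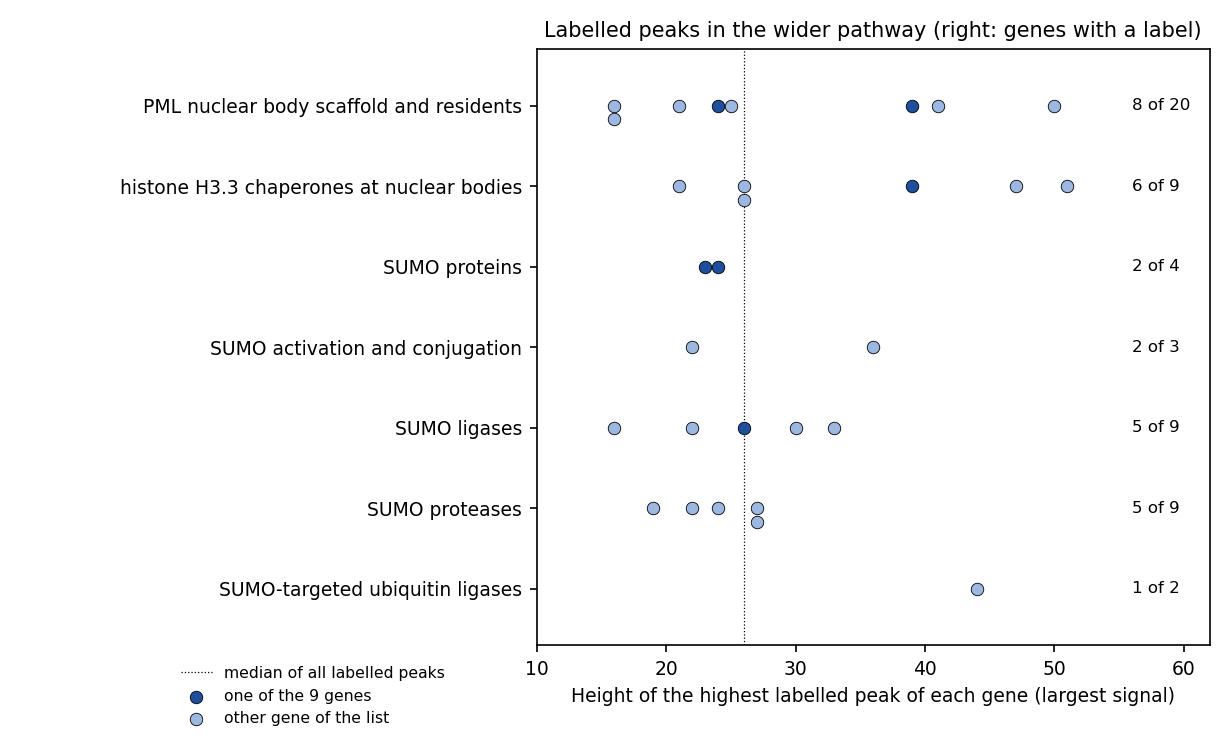
Height (largest signal) of the highest labelled peak of each gene with a label in the 7 lists, dark for the 9 genes and light for others, with the count of labelled genes per list at the right and the median of all labelled peaks, 26, as a dotted line. By labelled peaks, genes of histone H3.3 and its chaperones reached the highest value, 51, and the SUMO genes and proteases stayed at 27 or lower. The peak at the start of the SUMO protease USPL1, with the symbol HMGB1 and a height of 51, is not shown.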

How the data were processed

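The study profiled PML::RARA by Cut&Run in U937-PR9 cells, with 2 replicates of each antibody and condition. The authors used Trimmomatic for trimming, Bowtie2 for alignment to hg19, Samtools to remove duplicates and Bedtools to remove blacklisted regions, called peaks with SEACR (norm union) against paired controls, and kept peaks with an IDR below 0.05 over both replicates. For each peak the authors deposited a value named summit, read here as the total signal despite its name. The authors also deposited a SEACR score, read as the largest signal within the peak and used here as height. This content was inferred from the values, since the total was below height times width in all 15412 peaks. Whether norm union or pooling altered the signal is not stated in the sources used here. Gene symbols are the authors' own, from UCSC known genes at the apex. In 34 peaks without an end of the apex interval its start was used.

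Start sites, exons and promoters came from GENCODE 44 on GRCh37, with protein-coding genes as background. The canonical start is that of the canonical transcript. Motifs were matched on both strands within 100 bp of the apex, and matches of different motifs may overlap. Ranks run from the highest or widest peak, and peaks with the same value share a rank. Percentages of the list are of peaks strictly lower or narrower.

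Named genes were the 9 members, list genes with a labelled peak at or above the 90th percentile of height or width, list genes without a label, and genes that mark the place of a peak. Some genes and sequences that this rule would name are not reported here. The members and lists were chosen with earlier results of these data known, and results are descriptions without a test. Position and motif functions were tested on simulated data. Analyses used pandas 2.3.3, numpy 2.4.6 and pysam 0.24.0 in Python 3.11.15, and plots matplotlib 3.10.9.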

Additional observations from a re-analysis of the deposited data

How the results depend on the processing

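No paired analysis was possible because each peak has 1 value over both replicates and no result comes from a test. Leaving out a replicate was not possible either. With stricter lists, which shorten them by construction, labelled peaks remained for 2 of the 9 genes at or above the median height and for 3 at or above the median width, and for 15 of the 53 pathway genes at or above the median height. The share of all protein-coding genes under these cuts is not given. These counts therefore cannot be set beside the 30.4% of the full list. The 12 peaks became 6 within 10 kb. Of the 12, 7 were at or above the median height, but the rule applied to such peaks alone gave 5, because a neighbour of PML and one of SUMO3 dropped out with the labelled peaks they were counted by. The peaks numbered 17 within 100 kb and 11 with neighbours under 1 kb apart merged. The median height of the labelled peaks was 26.5 and their median width 1016 bp with the unlabelled neighbours included. With the peak at the PML start site included, an alternative chosen after seeing the data, they were 25 and 1221 bp. The share of peaks below the median labelled peak rose from 45.3% by height to 54.3% by mean signal per bp. The number of genes with an apex at their own start, 5, equalled that by label. Depth is unknown, so the absence of a peak is an absence from this list only.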
